A study of Homo sapiens with 9 samples.

Results

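The genes described here are 50 members of the TGF-beta and BMP pathway, out of 57766 genes in the expression table: ligands, receptors, SMADs, and extracellular and intracellular regulators. They were taken by gene symbol from a list, and each of the 50 symbols matched exactly 1 row. Polyadenylated RNA was sequenced from an established human cell line of embryonic kidney origin, HEK293, in its Freestyle form that grows in suspension. Preculture lasted at least 18 h at 1000000 cells/mL, and after a PBS wash 4000000 cells/mL spent 36 h in 1 of 3 media. Full medium was untreated, depleted medium had its Zn(II) removed, and repleted medium was depleted medium with Zn(II) restored, with 3 libraries each from biological replicates. The protocol also names a wash with 500 µM EDTA followed by PBS, and its wording does not make clear what was washed or for which groups. How far free zinc fell in the medium, how much was added back and the number of viable cells were not analysed here. All 3 groups are the same cell line, and no TGF-beta or BMP ligand, inhibitor or genetic change is named in the labels.

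Ligands of this family are secreted as dimers, the TGF-betas in a latent complex with LTBP proteins, and bind pairs of type I and type II serine/threonine kinase receptors. The active type I receptor phosphorylates receptor SMADs, SMAD2 and SMAD3 on the TGF-beta and activin branch and SMAD1, SMAD5 and SMAD9 on the BMP branch. These bind the common partner SMAD4 and enter the nucleus, while SMAD6 and SMAD7 inhibit signalling. The DNA-binding MH1 domain of the receptor SMADs and SMAD4 holds a structural zinc ion, and BMP1 is a zinc metalloprotease. Transcript levels do not show SMAD phosphorylation, protein level or zinc loading.

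Levels are in RPKM, reads scaled to gene length and library size, which allows comparison between genes. Differences are between mean log2(RPKM + 1) values, a scale that compresses changes of weakly expressed genes. Fold changes are ratios of mean RPKM, so they can exceed the log2 difference beside them. The limma values belong to the log2 difference only. limma was run over the 15774 genes that reached 1 RPKM in 3 or more libraries. A change was called at a Benjamini-Hochberg adjusted p below 0.05 over all genes tested. The stated read depth was not at hand, and the steps between low values gave an estimate of 17000000 to 23500000 reads per library. Between 59% and 66.1% of the low values used were whole reads within 0.1 read, so these estimates are rough. The zinc-storing metallothionein MT2A checked the labels: it lay between 184 and 201 RPKM in full, between 5.72 and 7.08 in depleted and between 90.1 and 96.7 in repleted libraries. All 8 markers of the line's embryonic kidney, neuronal and epithelial character (PAX2, LHX1, NEFL, NEFM, INA, KRT8, KRT18, VIM) reached 1 RPKM in full medium. In depleted against full medium 1 of the 8 rose (VIM, log2 0.21), 5 fell (NEFL -2.12, PAX2 -1.43, LHX1 -0.88, KRT8 -0.57 and KRT18 -0.38), and NEFM (-0.37) and INA (0.04) were not called in limma. PAX2 and LHX1 entered the test through full and repleted medium, and their means in depleted medium were 0.6 and 1.11 RPKM. Summed over each list, markers of blood (0.5 to 1.29 RPKM), endothelium (0.3 to 0.48, 3 of 4 genes in the table) and liver (0.11 to 0.61) were near 0 in every library, and the haemoglobin gene HBB was listed at 0 in all 9. The 6 fibroblast and muscle markers summed to 42.3 to 48.9 RPKM in full, 24.9 to 27.3 in depleted and 42 to 44.6 in repleted libraries, mostly from COL1A1, LUM and ACTA2, and the part of this shift in the results below was not tested.

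In depleted medium, 5 of 7 ligand genes and 5 of 8 extracellular regulator genes tested fell, beside 31.2% of all genes tested. Of the 8 SMADs 3 rose and 2 fell, and of the 8 intracellular regulators 2 rose and 1 fell. Beside these, 29.8% of all genes tested rose. The transcripts of TGFB1, BMP7, BMP2, BMP4 and the activin subunit INHBB fell, and no ligand gene tested among the members rose. Outside the list, the ligand genes INHBE (log2 2.06), GDF15 (1.57) and BMP8B (0.21) rose, while BMP6 (-0.57), BMP3 (-0.83) and GDF6 (-0.38) fell. The receptors TGFBR1 and ACVR2B, the receptor SMADs SMAD2 and SMAD5 and the common SMAD4 rose, while the inhibitory SMAD6 and the decoy receptor BAMBI fell. The receptor TGFBR2, the co-receptor TGFBR3 and SMAD3 also fell, although the SMAD3 call was lost in 5 of 17 alternatives. The negative regulators SMURF2, TGIF2 and FSTL3 rose, while the SMAD corepressor SKI fell. In repleted medium the transcripts of these members lay at levels close to those of full medium. Of the 50 members, 42 passed the filter on low values, and in depleted against full medium 10 of these were called higher and 16 lower (median log2 -0.16). The background was high, since 60.9% of all 15774 genes were called, 29.8% higher and 31.2% lower (median log2 0.00084), so 26 calls among 42 members (61.9%) is near the background and is no result about the pathway as a group. By role, the called share was 71.4% of ligands, 63.6% of receptors and 62.5% of SMADs tested. It was 75% of extracellular and 37.5% of intracellular regulators. Each share rests on 7 to 11 genes, and whether it differs from that of all genes was not tested. The libraries of the groups did not overlap for 31 of the 42 members and for 67.6% of all genes. What follows is therefore about which members moved, in which direction and by how much. In bulk RNA, fewer cells of a type and less RNA per cell cannot be told apart.

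**Figure D1:**
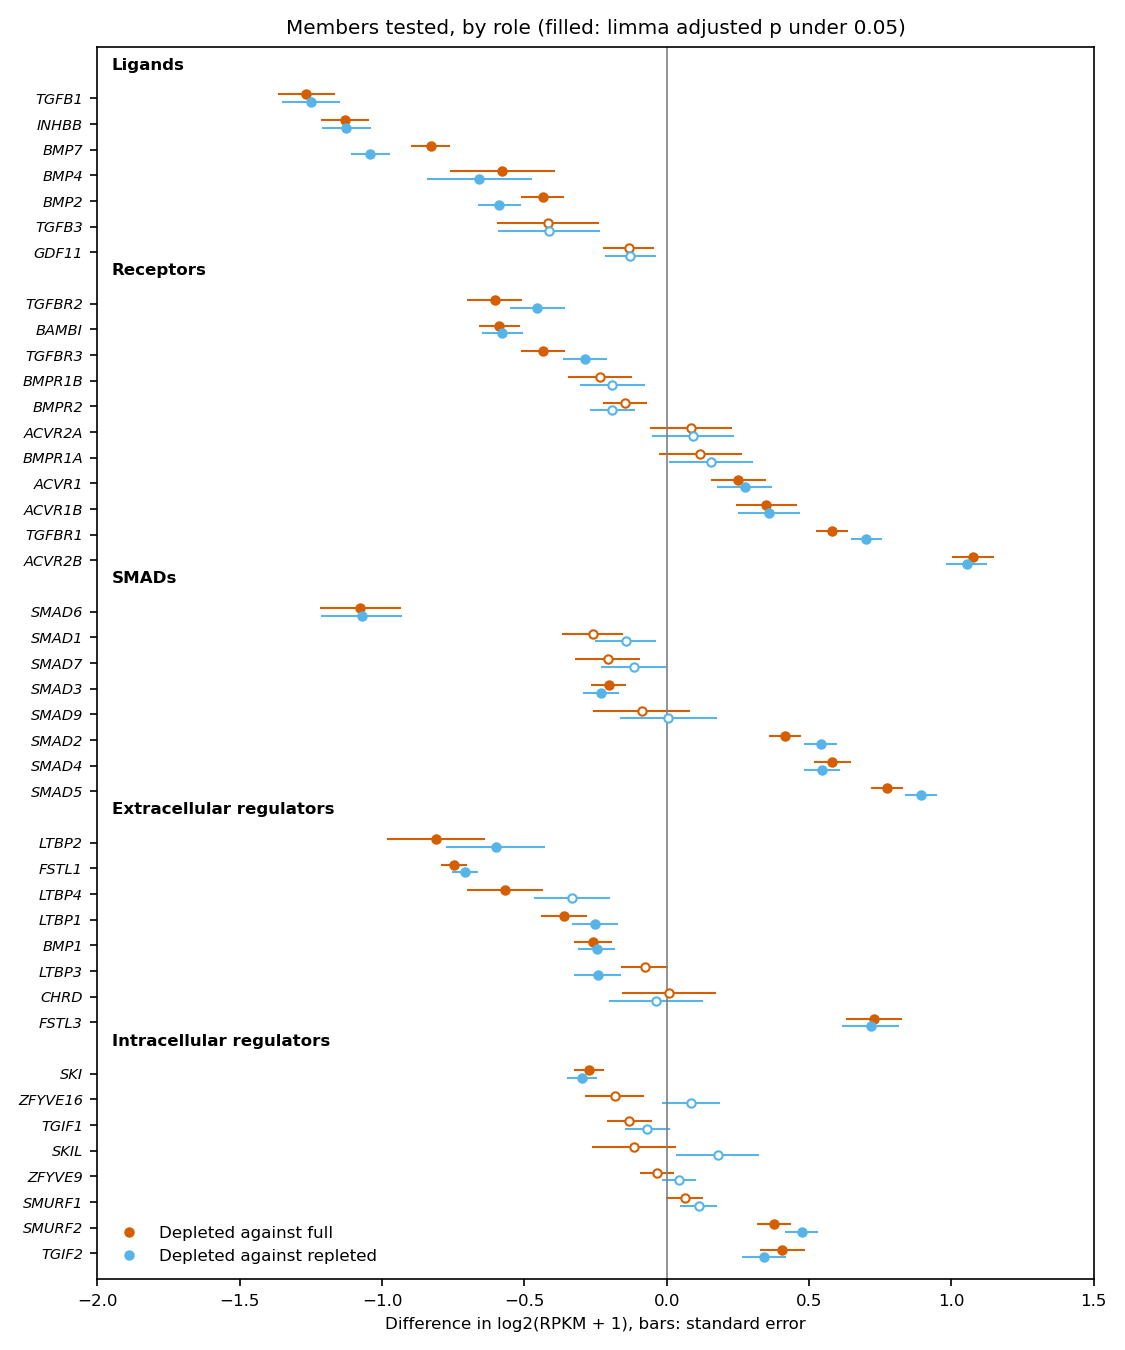
Difference in log2(RPKM + 1) of the 42 members tested, grouped by role, for depleted against full (orange) and depleted against repleted medium (blue), with standard errors and filled points for limma adjusted p below 0.05. All 7 ligands lie below 0 in both comparisons, and SMAD2, SMAD4 and SMAD5 lie above 0 while SMAD6 lies at -1.08 and -1.07.

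The upstream sequences of 4 members with large changes, SMAD6 and INHBB among those that fell and SMAD5 and ACVR2B among those that rose, are shown because they hold letters of sites named for SMADs or for the metal-responsive factor MTF1. Each is the 250 bases before the gene's RefSeq start (RefSeq, build GRCh38.p14), read 5′ to 3′ on the gene's strand, with matches in capitals.
SMAD6, chr15:66701986-66702235, + strand: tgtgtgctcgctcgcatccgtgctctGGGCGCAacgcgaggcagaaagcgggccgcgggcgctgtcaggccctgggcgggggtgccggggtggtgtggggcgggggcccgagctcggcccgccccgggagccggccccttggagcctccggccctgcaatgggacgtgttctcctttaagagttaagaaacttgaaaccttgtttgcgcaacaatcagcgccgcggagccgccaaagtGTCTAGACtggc
INHBB, chr2:120345886-120346135, + strand: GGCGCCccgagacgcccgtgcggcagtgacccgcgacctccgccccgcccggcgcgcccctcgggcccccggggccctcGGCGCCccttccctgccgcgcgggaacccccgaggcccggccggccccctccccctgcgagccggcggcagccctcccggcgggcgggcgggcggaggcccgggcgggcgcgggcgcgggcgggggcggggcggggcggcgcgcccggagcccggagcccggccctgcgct
SMAD5, chr5:136132595-136132844, + strand: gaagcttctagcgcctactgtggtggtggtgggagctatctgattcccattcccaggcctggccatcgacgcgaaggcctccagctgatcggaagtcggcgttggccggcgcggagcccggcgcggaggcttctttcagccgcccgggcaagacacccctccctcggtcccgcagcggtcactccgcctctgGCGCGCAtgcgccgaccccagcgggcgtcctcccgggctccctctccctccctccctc
ACVR2B, chr3:38453640-38453889, + strand: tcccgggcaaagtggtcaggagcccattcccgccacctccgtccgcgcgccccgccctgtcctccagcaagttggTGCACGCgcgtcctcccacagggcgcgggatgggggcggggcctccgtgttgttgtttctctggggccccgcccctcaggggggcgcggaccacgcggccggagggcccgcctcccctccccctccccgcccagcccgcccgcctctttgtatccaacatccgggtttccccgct
Searched on both strands, the SMAD-binding palindrome GTCTAGAC was in 1 of 83 start windows of the 44 members that RefSeq matched, that of SMAD6, and in 0.182% of all 35116 windows of this length. In SMAD6 it ends 5 bases before the start. The GC-rich SMAD site GGCGCC, present at 2 places in INHBB, was in 26.5% of member windows and 16.4% of all windows. The metal response element cores TGCACNC, seen in ACVR2B, and TGCGCNC, seen on the opposite strand in SMAD6 and SMAD5, were in 10.8% and 20.5% of member windows and in 9.87% and 16.8% of all. These are matches of letters, not evidence of binding, and no RefSeq window was matched for BMP1, BMP2, BMP7, LEFTY2, NOG and SKI. In depleted against full medium, GGCGCC was in 7 members called higher, 7 called lower and 5 not called. The corresponding counts were 1, 3 and 3 for TGCACNC and 6, 2 and 5 for TGCGCNC. Of all members tested, 10 were called higher, 16 lower and 16 not called. BMP1, BMP2, BMP7 and SKI, all called lower, had no window to search. Members that were not tested also held sites, GREM1 for GGCGCC and FST, GREM1 and TGFB2 for TGCGCNC. Shares by call over all genes were not counted. TGFB1, which had the largest log2 fall of the members tested, held none of these sites.

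Among the ligands, 5 of the 7 tested fell in depleted medium and 0 rose (median log2 -0.58). TGFB1 (ENSG00000105329), the most abundant ligand transcript in full medium and the prototype of the family, was at 26.8, 34.1 and 32.7 RPKM in full libraries, 11.4, 14.2 and 11.5 in depleted libraries and 31.3, 29.8 and 30.9 in repleted libraries. The depleted libraries lay below all others, a 2.52-fold fall against full medium (limma log2 -1.27, SE 0.10, adjusted p = 4.51e-06). Genes on the opposite strand overlap TGFB1, among them HNRNPUL1 at 184 RPKM in full and 254 in depleted medium and CCDC97 at 29.7 and 23.9, and whether counting used strand is not given in the sources used here.

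INHBB (ENSG00000163083), which encodes the beta B subunit of activin and inhibin, was at 3.99, 4.02 and 3.98 RPKM in full libraries, 1.25, 1.37 and 1.23 in depleted libraries and 3.92, 3.87 and 4.16 in repleted libraries. This was a 3.11-fold fall (limma log2 -1.13, SE 0.09, adjusted p = 3.17e-06), and full and repleted libraries overlapped. BMP7 (ENSG00000101144), a BMP needed for kidney development, was at 17.1, 17.3 and 18.2 RPKM in full libraries, 8.95, 8.95 and 10.5 in depleted libraries and 19.6, 20.6 and 21.3 in repleted libraries. It was 1.86-fold lower in depleted than in full medium (limma log2 -0.83, SE 0.07, adjusted p = 5.78e-06) and 2.17-fold lower than in repleted medium. All 3 repleted libraries lay above all 3 full ones, although that difference of 0.21 on the log2 scale did not pass (limma adjusted p = 0.527). BMP2, an inducer of bone formation, fell from 5.4 ± 0.211 to 3.73 ± 0.167 RPKM (SD, n = 3 each; log2 -0.44) and was at 6.12 ± 0.337 in repleted medium. BMP4 (ENSG00000125378), a close relative of BMP2, was at 6.37, 6.11 and 6.26 RPKM in full libraries, 3.32, 4.22 and 4.08 in depleted libraries and 6.06, 4.98 and 9.69 in repleted libraries. Its depleted libraries were the lowest (limma log2 -0.58, SE 0.18, adjusted p = 0.0216), and repleted replicate 3 stood well above the other repleted libraries. The BMP4 call was lost with no filter on low values (limma adjusted p = 0.143), after quantile normalization (0.0847), at a threshold of 0.01, and without full replicate 1 (0.0553), full replicate 3 (0.0519) or depleted replicate 1 (0.0721), over a range of 0.00131 to 0.143 in 17 alternatives.

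The other ligand genes were not called or were too low to test. GDF11, a ligand of the activin type II receptors, had 16.3 ± 1.84 RPKM in full and 14.7 ± 0.915 in depleted medium (log2 -0.13, limma adjusted p = 0.223), and was then the highest ligand transcript in depleted libraries, where TGFB1 had 12.4 ± 1.59. The opposite-strand gene SARNP overlaps GDF11, at 56 RPKM in full and 51.8 in depleted medium, so the same limit on strand applies. TGFB3 had 2.51 ± 0.181, 1.63 ± 0.139 and 2.59 ± 1.05 RPKM in full, depleted and repleted medium (log2 -0.42, limma adjusted p = 0.0686 for depleted against full). It is overlapped by the opposite-strand gene IFT43, at 20.1 RPKM in full and 16 in depleted medium, with the same limit on strand. TGFB2 lay between 0.25 and 1.01 RPKM over all libraries. INHBA, INHA and LEFTY2, at 0 to 0.49 RPKM, were near the lowest detectable level throughout. LEFTY2 had 0.31, 0.47 and 0.38 RPKM in depleted libraries, above all full (0.09 to 0.16) and repleted libraries (0 to 0.17). With no filter on low values it was not called in depleted against full medium (log2 0.29, limma adjusted p = 0.128).

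**Figure D2:**
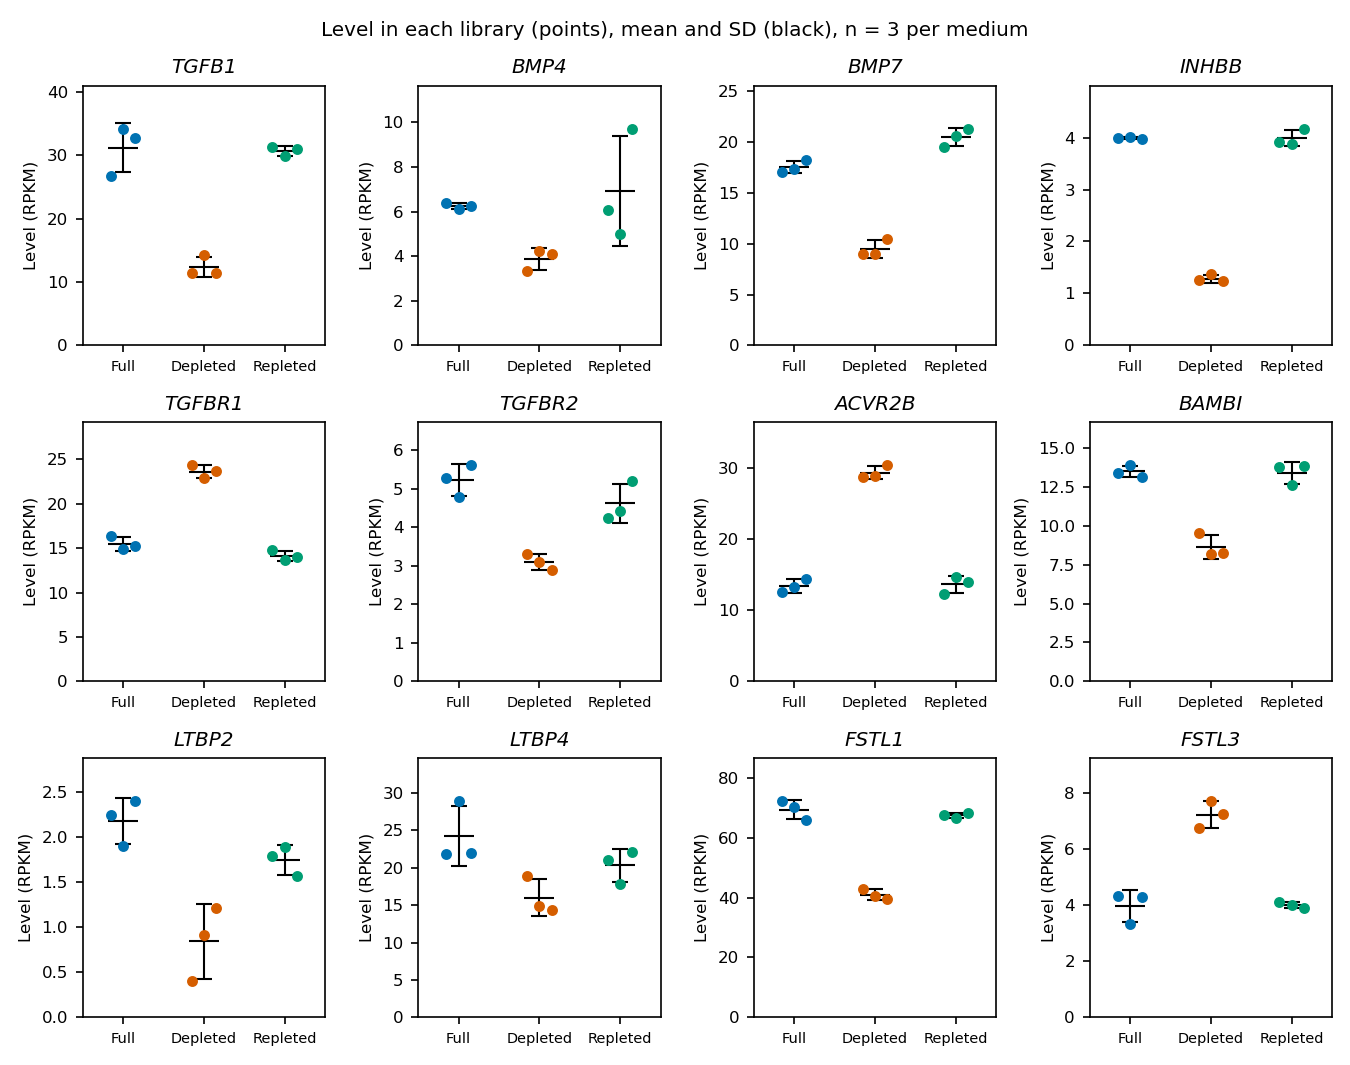
RPKM in each of the 9 libraries (points) with mean and SD (black) for the 12 members outside the SMADs that were called in depleted against full medium with a log2 change of at least 0.5. The depleted libraries (orange) stand apart from the full ones in every panel, above them for TGFBR1, ACVR2B and FSTL3 and below them for the other 9.

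The receptors moved in mixed directions, with 4 of 11 tested called higher and 3 lower (median log2 0.09). ACVR2B (ENSG00000114739), a type II receptor for activins, was at 12.5, 13.3 and 14.4 RPKM in full libraries, 28.7, 28.9 and 30.4 in depleted libraries and 12.3, 14.7 and 14 in repleted libraries. All depleted libraries had more than 28 RPKM and all others less than 15, a 2.19-fold rise (limma log2 1.08, SE 0.07, adjusted p = 1.52e-06). It had the largest rise of the 42 members tested. Its antisense partner ACVR2B-AS1 was at 1.14, 1.04 and 1.2 RPKM in full, depleted and repleted medium. The related type II receptor gene ACVR2A had 3.16 ± 0.828 RPKM in full and 3.37 ± 0.304 in depleted medium (log2 0.09, limma adjusted p = 0.632), and whether the changes of these relatives differ was not tested. The opposite-strand gene ORC4 overlaps ACVR2A, at 30.4 RPKM in full and 23.5 in depleted medium, and whether counting used strand is not given.

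The type I and type II receptors of TGF-beta itself went in opposite directions. TGFBR1 (ENSG00000106799), the type I receptor, was at 16.3, 14.8 and 15.2 RPKM in full libraries, 24.3, 22.8 and 23.7 in depleted libraries and 14.8, 13.7 and 13.9 in repleted libraries. It rose 1.53-fold (limma log2 0.58, SE 0.06, adjusted p = 1.48e-05). TGFBR2 (ENSG00000163513), the type II receptor that binds the ligand, was at 5.27, 4.79 and 5.61 RPKM in full libraries, 3.3, 3.09 and 2.89 in depleted libraries and 4.25, 4.42 and 5.19 in repleted libraries. It fell 1.69-fold (limma log2 -0.60, SE 0.10, adjusted p = 0.000464), so that the mean TGFBR1 level was 15.5 RPKM beside 5.22 for TGFBR2 in full medium, and 23.6 beside 3.09 in depleted medium. TGFBR3, the co-receptor betaglycan, fell from 9.46 ± 0.336 to 6.74 ± 0.465 RPKM (log2 -0.43, limma adjusted p = 0.000803). BAMBI (ENSG00000095739), a pseudoreceptor that lacks the kinase domain and blocks signalling, was at 13.4, 13.9 and 13.2 RPKM in full libraries, 9.55, 8.17 and 8.23 in depleted libraries and 13.8, 12.6 and 13.8 in repleted libraries. Its 1.56-fold fall (limma log2 -0.59, SE 0.07, adjusted p = 7.53e-05) left no overlap between depleted and other libraries.

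Smaller rises were called for the type I receptors ACVR1B (14 ± 1.15 to 18.1 ± 0.551 RPKM, log2 0.35, limma adjusted p = 0.0189) and ACVR1 (4.6 ± 0.528 to 5.66 ± 0.501, log2 0.25, limma adjusted p = 0.0468). The ACVR1 call was lost in 11 of 17 alternatives, among them the omission of any 1 library other than depleted replicate 2. ACVR1B was lost with no filter, at a threshold of 0.01, and without full replicate 1, full replicate 3 or depleted replicate 3. The receptor genes BMPR1A, BMPR1B and BMPR2 were not called. BMPR1A had log2 0.12, BMPR1B -0.23 and BMPR2 -0.15, with limma adjusted p of 0.509, 0.102 and 0.133. The endothelial co-receptor ENG, at 0.09 to 0.7 RPKM, was not tested.

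All 8 SMAD genes passed the filter, and 3 were called higher and 2 lower in depleted against full medium (median log2 -0.15). The highest were the same 3 in each medium, in the order SMAD5, SMAD4, SMAD2. SMAD5 (ENSG00000113658), a receptor SMAD of the BMP branch, was at 33.3, 30 and 28.8 RPKM in full libraries, 52.3, 51.8 and 55.2 in depleted libraries and 27.5, 28.3 and 28.6 in repleted libraries. It rose 1.73-fold (limma log2 0.77, SE 0.06, adjusted p = 2.47e-06), the largest rise among SMADs. SMAD4 (ENSG00000141646), the partner of both branches, was at 28.6, 26.2 and 26.3 RPKM in full libraries, 43.1, 39.8 and 39.9 in depleted libraries and 27.3, 30.1 and 25.9 in repleted libraries. It rose 1.51-fold (limma log2 0.58, SE 0.06, adjusted p = 4.13e-05). SMAD2 (ENSG00000175387), of the TGF-beta and activin branch, was at 23.5, 25.3 and 22.5 RPKM in full libraries, 31.4, 31.5 and 33.1 in depleted libraries and 22.1, 20.4 and 22.6 in repleted libraries. It rose 1.35-fold (limma log2 0.42, SE 0.06, adjusted p = 0.000184), and for these 3 genes every depleted library exceeded every other library.

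The closest relatives of these SMADs were not called higher, and whether their changes differ from those of SMAD2 and SMAD5 was not tested. SMAD3 (ENSG00000166949), which shares its branch with SMAD2, was at 11.9, 11.7 and 10.7 RPKM in full libraries, 10, 9.45 and 9.9 in depleted libraries and 12.2, 11.2 and 11.7 in repleted libraries. Its fall was small (limma log2 -0.20, SE 0.06, adjusted p = 0.0178), although the groups did not overlap, and the call was lost after median centring (0.0523), at a threshold of 0.01 and without full replicate 1 (0.0651), full replicate 2 (0.0569) or depleted replicate 2 (0.0607), in a range of 0.0134 to 0.0651. SMAD1 (ENSG00000170365), which shares its branch with SMAD5, was at 13.2, 10.9 and 11.4 RPKM in full libraries, 8.87, 11 and 9.3 in depleted libraries and 9.46, 11.6 and 11.4 in repleted libraries. The groups overlapped and it was not called (limma log2 -0.26, SE 0.11, adjusted p = 0.0595), but it passed without depleted replicate 2 (0.0272) or repleted replicate 1 (0.0423). SMAD9 (ENSG00000120693), the third BMP-branch member, was at 4.5, 3.35 and 2.68 RPKM in full libraries, 3.16, 2.79 and 3.65 in depleted libraries and 2.47, 3.66 and 3.49 in repleted libraries. These values overlapped in all 3 media (limma log2 -0.09, SE 0.17, adjusted p = 0.675).

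Of the inhibitory SMADs, SMAD6 fell and SMAD7 was not called. SMAD6 (ENSG00000137834), which acts mainly on BMP signalling and whose upstream sequence above holds the palindrome, was at 2.98, 3.38 and 2.62 RPKM in full libraries, 0.91, 0.75 and 1.01 in depleted libraries and 3.67, 2.94 and 2.39 in repleted libraries. It was 3.36-fold lower in depleted than in full medium (limma log2 -1.08, SE 0.14, adjusted p = 0.000132). The lowest of these values rests on an estimated 29 reads, and SMAD6 passed the filter through its full and repleted libraries, as did LTBP2. SMAD7 (ENSG00000101665), a general inhibitor of the pathway, was at 5, 5.06 and 4.57 RPKM in full libraries, 3.33, 4.7 and 4.34 in depleted libraries and 4.55, 4.9 and 4.12 in repleted libraries. Depleted and full libraries overlapped (limma log2 -0.21, SE 0.11, adjusted p = 0.146). The difference ran from -0.29 without depleted replicate 2 to -0.09 without depleted replicate 1, and was -0.06 after quantile normalization. Whether SMAD6 and SMAD7 changed to different degrees was not tested.

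**Figure D3:**
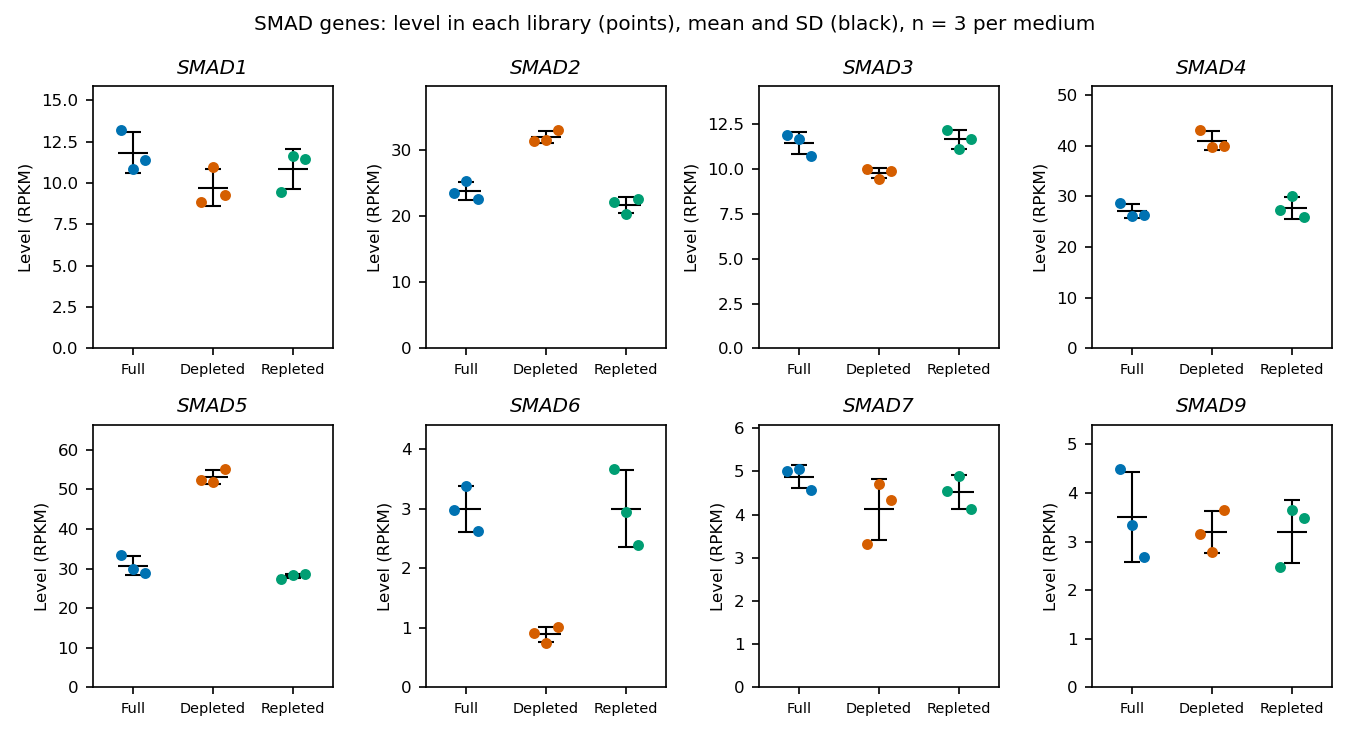
RPKM of the 8 SMAD genes in each library (points) with mean and SD (black), n = 3 per medium. Depleted libraries lie above all others for SMAD2, SMAD4 and SMAD5 and below all others for SMAD3 and SMAD6, while the groups overlap for SMAD1, SMAD7 and SMAD9.

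Of the 8 extracellular regulators tested, 1 rose and 5 fell (median log2 -0.31). The exception was FSTL3 (ENSG00000070404), a secreted protein that binds and blocks activins and myostatin, at 4.33, 3.33 and 4.3 RPKM in full libraries, 6.75, 7.71 and 7.24 in depleted libraries and 4.11, 4.02 and 3.89 in repleted libraries. It was 1.81-fold higher in depleted medium (limma log2 0.73, SE 0.10, adjusted p = 0.00016). FSTL1 (ENSG00000163430), a secreted glycoprotein related to follistatin and the most abundant of all 50 members in full medium, was at 72.1, 70.1 and 65.8 RPKM in full libraries, 42.9, 40.4 and 39.4 in depleted libraries and 67.6, 66.6 and 68.2 in repleted libraries. Its 1.7-fold fall had the smallest adjusted p of the members (limma log2 -0.75, SE 0.05, adjusted p = 7.35e-07).

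The genes of the latent TGF-beta binding protein family were lower or not called. LTBP2 (ENSG00000119681), a matrix protein of this family, was at 2.25, 1.9 and 2.4 RPKM in full libraries, 0.4, 0.91 and 1.22 in depleted libraries and 1.79, 1.89 and 1.57 in repleted libraries. It was 2.59-fold lower than in full medium (limma log2 -0.81, SE 0.17, adjusted p = 0.00271), with a wide spread among depleted libraries. LTBP4 (ENSG00000090006) was at 21.9, 28.9 and 22 RPKM in full libraries, 18.8, 14.8 and 14.3 in depleted libraries and 21, 17.9 and 22.1 in repleted libraries. It fell against full medium (limma log2 -0.57, SE 0.13, adjusted p = 0.00458), but against repleted medium the groups overlapped and it was not called (log2 -0.33, limma adjusted p = 0.0555, 0.017 to 0.285 over 17 alternatives). LTBP1 fell from 13.2 ± 0.87 to 10 ± 0.954 RPKM (log2 -0.36), and LTBP3 had 21.3 ± 1.79 and 20.2 ± 1.99 RPKM (log2 -0.08, limma adjusted p = 0.437). BMP1, the protease that cleaves procollagen and the BMP antagonist chordin, fell from 6.82 ± 0.137 to 5.54 ± 0.279 RPKM (log2 -0.26, limma adjusted p = 0.00719), a call lost after quantile normalization.

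Of the members, the BMP antagonists CHRD, NOG, FST and GREM1 were weakly expressed. CHRD, chordin, had 1.77 ± 0.52 RPKM in full and 1.75 ± 0.247 in depleted medium (log2 0.01, limma adjusted p = 0.973). NOG, noggin, did not pass the filter, with 0.78, 0.99 and 0.93 RPKM in full, 0.15, 0.1 and 0.19 in depleted and 1.07, 0.74 and 1 in repleted libraries. The depleted libraries lay below all others, and with no filter on low values NOG was called lower in depleted than in full (log2 -0.73, limma adjusted p = 0.00181) and in repleted medium (log2 -0.75, limma adjusted p = 0.00152). FST, follistatin, and GREM1, gremlin, lay at 0.32 to 1.14 and 0.1 to 0.36 RPKM, and neither was called with no filter (limma adjusted p of 0.365 and 0.433).

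Of the 8 intracellular regulators, all tested, 2 rose and 1 fell. SMURF2, a ubiquitin ligase that targets SMADs and receptors, rose from 16.1 ± 0.792 to 21.2 ± 1.24 RPKM (limma log2 0.38, SE 0.06, adjusted p = 0.000407). Its relative SMURF1 had 7.44 ± 0.413 and 7.82 ± 0.0321 RPKM (log2 0.06, limma adjusted p = 0.425). Opposite-strand genes overlap SMURF1 (TRRAP, 19 RPKM in full and 22.5 in depleted medium) and SMURF2 (CEP95, 17.9 and 16.9). Whether counting used strand is not given. TGIF2, a homeodomain corepressor of SMADs, rose from 15.5 ± 0.332 to 20.9 ± 1.91 RPKM (limma log2 0.41, SE 0.08, adjusted p = 0.00155), while TGIF1 was not called (log2 -0.13, limma adjusted p = 0.175). The table also lists a readthrough transcript TGIF2-C20orf24, at 2.62 RPKM in full and 3.7 in depleted medium, with which TGIF2 may share reads. The SMAD corepressor SKI fell from 41.9 ± 2.69 to 34.4 ± 1.17 RPKM (limma log2 -0.27, SE 0.05, adjusted p = 0.00162). SKIL, ZFYVE9 and ZFYVE16, a relative of SKI and a pair of endosomal FYVE-domain proteins, had log2 values of -0.11, -0.03 and -0.18 and were not called.

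Depleted against repleted medium asks which differences depend on the zinc that was put back. This comparison shares its depleted libraries with the one above, so the values are given side by side and are not independent. Of the 42 members tested, 10 were called higher and 16 lower (61.9%), against 60.7% of all genes, 29.5% higher and 31.2% lower. The libraries of the groups did not overlap for 29 of the 42 members, against 65.2% of all genes. For TGFB1 the log2 difference was -1.27 against full and -1.25 against repleted medium, for INHBB -1.13 and -1.13, and for BMP7 -0.83 and -1.04. The corresponding values were 1.08 and 1.05 for ACVR2B, 0.77 and 0.89 for SMAD5, 0.58 and 0.55 for SMAD4, and -1.08 and -1.07 for SMAD6. For the transforming growth factor receptors they were 0.58 and 0.70 (TGFBR1) and -0.60 and -0.45 (TGFBR2). LTBP3 passed in this comparison only (log2 -0.24, limma adjusted p = 0.0273), and its call was lost with no filter, after median centring, at a threshold of 0.01 and without depleted replicate 1, depleted replicate 2, repleted replicate 1 or repleted replicate 2.

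Repleted against full medium asks whether adding zinc back restored the levels of untreated medium. None of the 42 members passed in limma (0 of 42), with 2 at an unadjusted p below 0.05, and the smallest adjusted p was 0.527, for BMP7. In this comparison 5 of all 15774 genes (0.0317%) were called, and 1224 (7.76%) had an unadjusted p below 0.05. Libraries did not overlap for 9 of the 42 members and for 12.4% of all genes. Log2 differences of the members ran from -0.29 (SKIL, 8.18 ± 0.818 RPKM in full and 6.56 ± 1.42 in repleted medium) to 0.21 (BMP7). The other member with an unadjusted p below 0.05 was ZFYVE16, at 18.7 ± 1.16 and 15.4 ± 0.775 RPKM (limma log2 -0.27, SE 0.10, adjusted p = 0.593). Over the same libraries MT2A was called lower in repleted than in full medium (log2 -1.02, limma adjusted p = 0.0011). A missed threshold does not show equal levels, and with 3 libraries a group the standard errors of the members ranged from 0.05 to 0.18 on the log2 scale.

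Genes outside the list show what was measured downstream and around it. They come from 5 lists of textbook targets and further pathway components, written with earlier results of these data known. Of 25 listed TGF-beta targets 21 were tested, 6 rose and 9 fell (median log2 -0.08), and of 14 BMP targets 13 were tested, 5 rose and 2 fell (median log2 0.20). Neither list had 1 direction. The called share was 71.4% of TGF-beta targets and 53.8% of BMP targets, beside 60.9% of all genes (29.8% higher, 31.2% lower). In the lists described further below it was 63.6% of ligands and receptors, 75% of extracellular genes and 62.1% of intracellular regulators. Whether any list differs from all genes was not tested. Some genes named from these lists entered the test through the groups where they were high: only depleted medium had all 3 libraries at 1 RPKM or more for CTGF and INHBE, only full and repleted medium for SPHK1, DLX5 and BMP3, and only full medium for SOSTDC1. CTGF, a matricellular protein gene induced by TGF-beta and by other signals, rose 6.71-fold from 0.747 ± 0.326 to 5.01 ± 0.232 RPKM (limma log2 1.80, SE 0.17, adjusted p = 1.68e-05). KLF10, a TGF-beta inducible zinc finger repressor, rose from 4.07 ± 0.243 to 11.3 ± 0.763 RPKM. Against these, the sphingosine kinase gene SPHK1 fell from 3.88 ± 0.341 to 0.933 ± 0.229 RPKM and the basement membrane collagen gene COL4A1 from 14 ± 0.277 to 7.91 ± 0.155. Among BMP targets, ID4, an inhibitor of basic helix-loop-helix factors, rose from 32.2 ± 0.778 to 71.4 ± 2.7 RPKM (limma log2 1.13, SE 0.04, adjusted p = 3.6e-08). The homeobox gene DLX2 rose from 23.3 ± 1.24 to 34.1 ± 1.77 RPKM and the Notch and BMP target HEY1 from 26.3 ± 1.17 to 35.1 ± 2.25, while DLX5 fell from 2.61 ± 0.151 to 1.13 ± 0.208. ID1 and ID2 were not called (log2 0.21 and 0.05). ID3 was called only against repleted medium, with 9.42 ± 1.38 RPKM in full, 10.9 ± 0.303 in depleted and 16.4 ± 2.41 in repleted libraries (log2 -0.54, limma adjusted p = 0.00297 for depleted against repleted). ID1, ID2 and ID3, classical BMP targets, were named after their values had been seen.

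Of 24 further ligands and receptors listed, 11 were tested, 3 rose and 4 fell. INHBE, the activin beta E subunit, rose 8.31-fold from 0.757 ± 0.188 to 6.29 ± 0.375 RPKM (limma log2 2.06, SE 0.14, adjusted p = 1.37e-06). GDF15, a distant member of the family that is induced in stressed cells, rose 4.22-fold from 1.6 ± 0.167 to 6.75 ± 1.09 RPKM (limma log2 1.57, SE 0.13, adjusted p = 5.43e-06). BMP6 and BMP3 fell, from 8.13 ± 0.241 to 5.14 ± 0.207 RPKM and from 1.4 ± 0.179 to 0.347 ± 0.0586. Of 28 further extracellular genes 12 were tested, 2 rose and 7 fell (median log2 -0.38). The microfibril gene FBN2 fell from 15.5 ± 1.81 to 8.42 ± 0.212 RPKM, the integrin ITGB5 from 27.4 ± 0.6 to 18.6 ± 1.05 and FURIN, the protease that cleaves TGF-beta precursors, from 23.2 ± 0.897 to 17 ± 1.05. SOSTDC1, a secreted BMP antagonist, fell from 1.15 ± 0.136 to 0.107 ± 0.0115 RPKM. Of 30 intracellular regulators 29 were tested, 10 rose and 8 fell (median log2 0.04). The kinase HIPK2 fell from 13.8 ± 1.7 to 4.66 ± 0.11 RPKM, the small phosphatase CTDSP1, which acts on the SMAD linker, from 20.8 ± 0.627 to 8.28 ± 0.0231 and the pocket protein RBL1 from 7.37 ± 0.186 to 3.02 ± 0.148. The sorting nexin SNX6 rose from 52.1 ± 3.33 to 77.2 ± 2.09 RPKM.

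**Figure D4:**
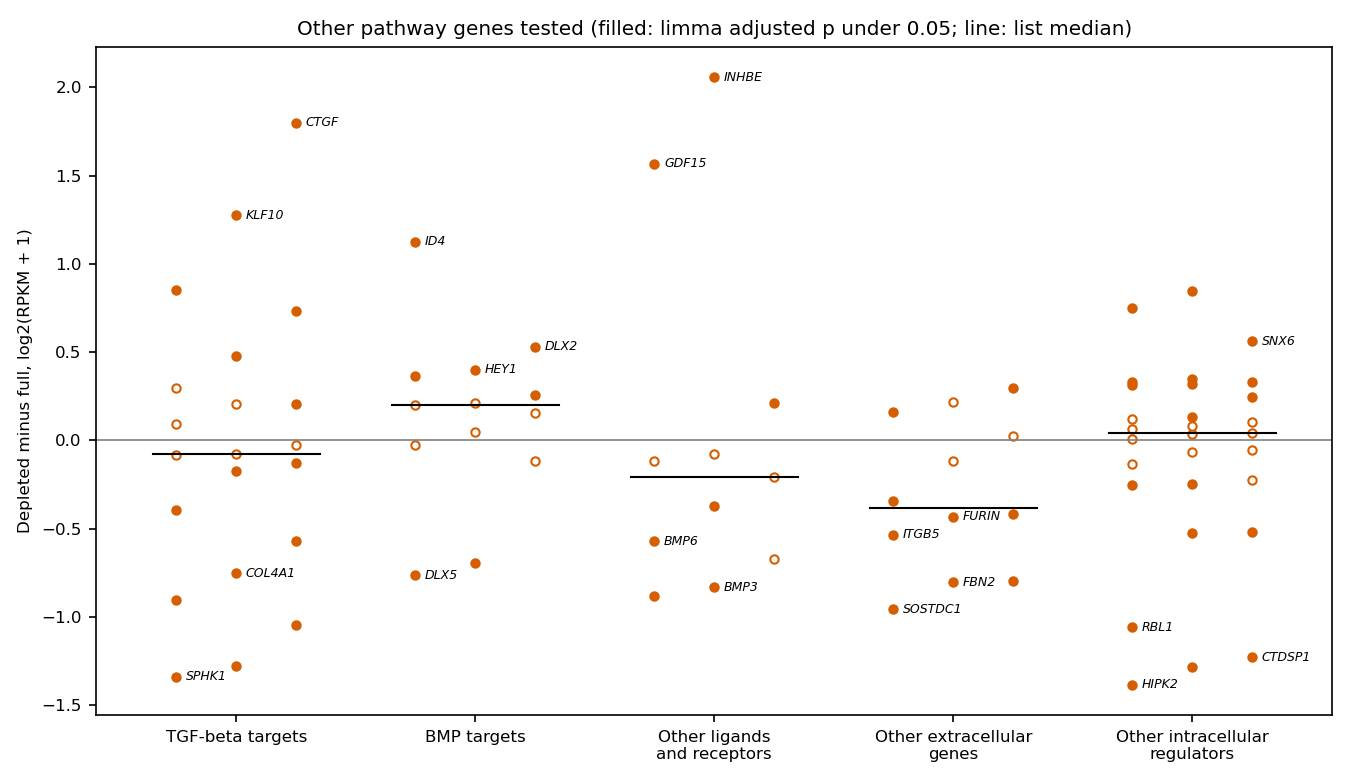
Depleted minus full difference in log2(RPKM + 1) of each tested gene in 5 lists of other pathway genes (points, filled where the limma adjusted p is below 0.05), with the list median as a line. Each list holds genes on both sides of 0, and INHBE at 2.06 and CTGF at 1.80 are the highest.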

How the data were processed

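The table deposited by the authors gives log2 of RPKM plus 1 per gene and library, per the file headers and the values (100% are multiples of 0.01 RPKM within 0.0002 after the log is undone). The submitters' processing notes list RSEM 1.2.6, Bowtie 1.0.1, BWA 0.7.12-r1039, bedtools 2.25.0.3 and the builds hg19 and GRCh37, without roles. Scaling between libraries and use of strand are not given in the sources used here. Of the table, 20320 blank rows were dropped, and 0 columns of unknown sample were found.

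limma 3.58.1 in R 4.3.3 was fitted with a variance trend to the log2 values (pseudocount 1) of all 9 libraries, with 1 mean per medium, and tested on simulated data, with the required recovery lowered once after its first result was seen. Groups came from the sample titles. The replicate number was not used as a block, because same-numbered libraries are not stated to share a batch. The residual correlation between libraries of different media was -0.0144 to 0.0726 for the same number and -0.0609 to 0.0416 for different numbers. Values in every library are given for SMADs and for called members with a log2 change of at least 0.5, and from each further list up to 4 called genes with the smallest p are named. Members and lists were chosen with earlier results of these data known. RBL1 matched more than 1 row and the tested one was used. Overlapping genes came from GENCODE 29, and figures from matplotlib 3.10.9 in Python 3.11.15. Alternatives were another pseudocount, filter, scaling, threshold and set of libraries, the block, and each library left out.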

Additional observations from a re-analysis of the deposited data

How the results depend on the processing

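Over 17 alternatives, 8 to 10 members were higher and 14 to 18 lower in depleted against full medium, 8 to 11 and 12 to 17 against repleted medium, and 0 in repleted against full medium. Leaving out 1 library at a time gave 8 to 10 higher and 14 to 18 lower members in depleted against full medium. With the replicate number as a block, 10 members were higher and 16 lower in each depleted comparison, no member call changed, and 2 of all genes were called in repleted against full medium in place of 5. That small count also moved to 3 with a pseudocount of 0.1, 9 with no filter, 2 with the 6 libraries compared and 1 at a threshold of 0.01, and from 1 to 9 without single libraries. The sign was compared for the 20 members that are SMADs or were called with a log2 change of at least 0.5. It changed in 26 cases, all of differences that were not called in either fit, and the cause was not tested. After quantile normalization these were SMAD9 in depleted against full (0.048), SMAD7 in depleted against repleted (0.036) and FSTL3 in repleted against full medium (-0.0034). When 1 library was left out, SMAD9 ran from -0.22 to 0.065 in depleted against full and from -0.13 to 0.085 in depleted against repleted medium, where SMAD7 ran from -0.20 to 0.00079. In repleted against full medium the ranges were -0.026 to 0.0897 for ACVR2B, -0.033 to 0.029 for BAMBI, -0.16 to 0.26 for BMP4, -0.086 to 0.063 for FSTL3, -0.030 to 0.012 for INHBB, -0.014 to 0.057 for SMAD3, -0.022 to 0.084 for SMAD4, -0.12 to 0.11 for SMAD6, -0.23 to 0.060 for SMAD9 and -0.12 to 0.049 for TGFB1. Read counts were not used here, so no counting interval is given, and weak members rest on few estimated reads.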
